A study of Mus musculus with 4 samples.

Results

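Dynamins and subunits of the clathrin adaptor AP-1 were followed in the established mouse beta cell line Beta-TC-6, which derives from the pancreas. The 10 genes were Dnm1, Dnm2 and Dnm3 (the dynamins) and Ap1b1, Ap1g1, Ap1m1, Ap1m2, Ap1s1, Ap1s2 and Ap1s3 (AP-1 subunits), of 22180 genes measured. The gamma gene Ap1g2 was not among them. They were selected on gene family with the siNF90 minus siNTC differences of these same arrays known, Dnm3 and Ap1s3 being among the lower genes. The differences of the 10 members are therefore given as a description and carry no test. Each gene was read from the probe set that carried its symbol alone, and all 10 had one. Only Dnm3 had a second, and its probe set of the higher mean was used.

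In the study, one group (siNF90) received a mixture of RNAi duplexes against NF90, a double-stranded RNA-binding protein, and the other (siNTC) a negative control siRNA. Both were Beta-TC-6 cells grown in medium with 25 mM glucose and 15% serum, transfected with the same lipid reagent, and both have 2 arrays. The line is a single transformed cell line, and the labels do not tell if replicate arrays stem from different cultures, so p-values cover the spread between arrays alone, and that could be technical. Expression was measured on single-colour Affymetrix Mouse Gene 2.1 ST arrays. The depletion of NF90 was not analysed here, so group names stand for the labels. Values are the deposited ones on a log2 scale, the base being inferred from their range, and no measure of background comes with them. A value of one probe set says nothing about the level of another gene, so only differences between arrays are compared.

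Dynamins are large GTPases that assemble around the neck of a budding vesicle and cut it from the membrane. Dynamin 1 is the main form at nerve terminals, dynamin 2 is made in most tissues, and dynamin 3 is best known from brain and testis. AP-1 is a complex of 4 subunits, a gamma, a beta, a mu and a sigma chain, that links clathrin to cargo at the trans-Golgi network and endosomes; it is unrelated to the transcription factor of the same name. In beta cells it is known for retrieving proteins from insulin granules as they mature.

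Each of the 3 dynamin genes has a microRNA gene of the miR-199 family inside its span on the opposite strand, in RefSeq (GRCm38.p6). Arms of the mature RNAs are shown because the arrays carry probe sets named for these genes. The probe sets are not named for the arms, so no level of a mature arm is given here. The first is the 5p arm of Mir199a-1 in Dnm2 (chr9:21496537-21496559, minus strand) and of Mir199a-2 in Dnm3 (chr1:162217844-162217866, plus strand). The next is the 3p arm of the same genes, which Mir199b in Dnm1 shares (chr2:32318524-32318545, plus strand), and the last belongs to Mir214 in Dnm3 (chr1:162223438-162223459, plus strand). Capitals mark the seed, bases 2 to 8 from the 5′ end. Among the arms shown, the 3p arms of Mir199a and Mir199b have the same letters and so the same seed, and the others each have a seed of their own.
miR-199a-5p: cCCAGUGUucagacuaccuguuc
miR-199a-3p: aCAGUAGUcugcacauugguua
miR-199b-3p: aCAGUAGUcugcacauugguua
miR-214-3p: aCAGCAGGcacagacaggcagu

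Of the dynamins, Dnm3 alone was lower on both siNF90 arrays than on both siNTC arrays. Dnm3 (probe set 17228906) stood at 5.52 and 5.46 in siNTC and at 4.74 and 4.63 in siNF90. The gap between the groups was far wider than that between the arrays of either group. The difference was -0.81 ± 0.12 (log2, SE of the fit over all genes, n = 2 arrays each), which is 1.75-fold lower. The second Dnm3 probe set, 17218733, stood at 1.68 and 1.4 in siNTC and 1.36 and 1.49 in siNF90. Its groups overlapped and its difference was -0.12, at values below 1.85, the median over all genes of their mean level. The lower value of Dnm3 is thus read from 1 of its 2 probe sets, and the mean of both gave a difference of -0.46. The annotation used does not give which part or strand of the locus probe set 17218733 covers. It may therefore not read the same transcript as the main one.

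Dnm2, the broadly made dynamin, stood at 5.63 and 5.78 in siNTC and 5.9 and 5.61 in siNF90. The siNF90 arrays enclosed the siNTC arrays, and the difference was 0.05 ± 0.15. Dnm1, the dynamin of synaptic vesicle recycling, stood at 4.29 and 4.16 in siNTC and 4.29 and 4.11 in siNF90. Its first arrays had the same value in both groups, and the difference was -0.03 ± 0.13.

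The microRNA genes inside the dynamin genes were read at the low end of the arrays. Mir199a-1, inside Dnm2, stood at 1.71 and 1.76 in siNTC and 1.23 and 0.71 in siNF90. The siNF90 pair lay wholly below the siNTC pair, with a difference of -0.77 ± 0.19 that missed the threshold of limma's genome-wide test (adjusted p = 0.371). Every one of these values lies below the median level, and no fold is given. Mir199b, inside Dnm1, stood at 0.88 and 0.68 in siNTC and 0.68 and 0.84 in siNF90, so its groups overlapped (limma, adjusted p = 0.974). One probe set named for Dnm3os, Mir199a-2 and Mir214 together stood at 1.26 and 1.15 in siNTC and 1.21 and 1.53 in siNF90. These 3 genes have no value of their own. The groups overlapped on that probe set, while on the main Dnm3 probe set they did not.

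**Figure D1:**
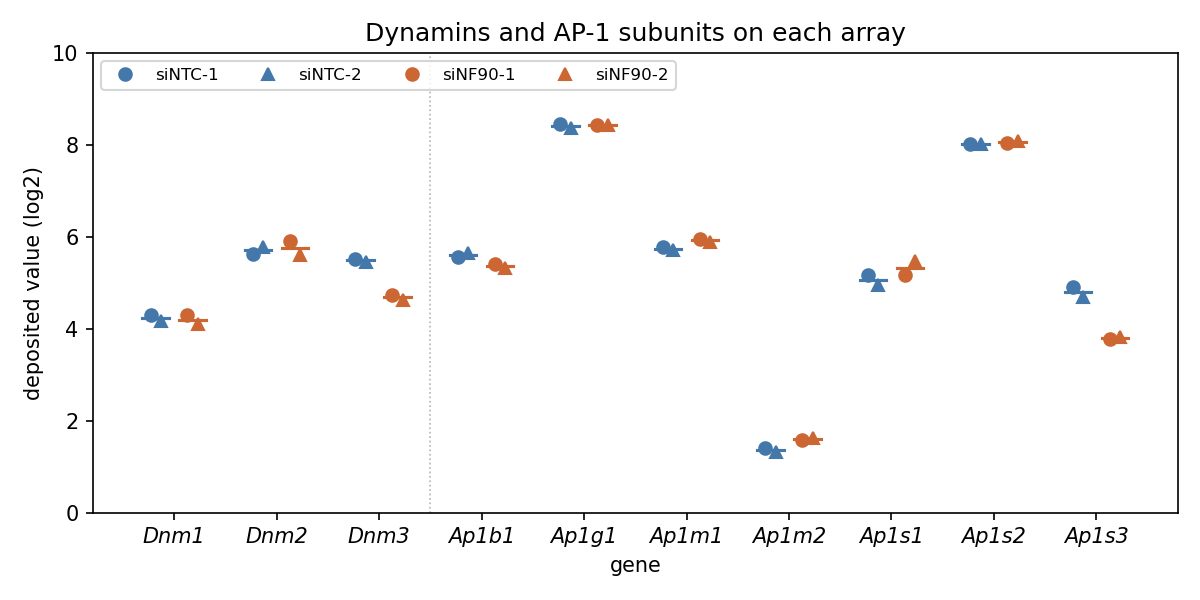
Deposited log2 value (vertical axis) of the 3 dynamins and 7 AP-1 subunits on each of the 4 arrays, with circles for the first and triangles for the second array of a group, and a bar for each group mean (n = 2 arrays). Dnm3 and Ap1s3 show the widest gaps, with siNF90 values of 4.74 and 4.63 against 5.52 and 5.46, and of 3.77 and 3.81 against 4.9 and 4.69.

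Among the small sigma subunits of AP-1, which steady the complex and help bind sorting signals, Ap1s3 was low in siNF90 while Ap1s1 and Ap1s2 were not. Ap1s3 (probe set 17224738) stood at 4.9 and 4.69 in siNTC and at 3.77 and 3.81 in siNF90. The siNF90 pair lay wholly below the siNTC pair, by more than any gap within a group. The difference was -1.01 ± 0.13 (log2, SE, n = 2 each), which is 2.01-fold lower and the lowest of the 10 members.

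Ap1s2, the sigma subunit encoded on the X chromosome, stood at 8.02 and 8.03 in siNTC and 8.05 and 8.09 in siNF90, a difference of 0.05 ± 0.12. The siNF90 pair lay above the siNTC pair, by hundredths. Ap1s1 stood at 5.18 and 4.95 in siNTC and 5.18 and 5.47 in siNF90, a difference of 0.26 ± 0.16. An array of each group stood at 5.18, so the groups were not fully apart. Ap1s1 had the highest difference of the 10 members and Ap1s3 the lowest, so sigma chains stood at both ends of the range.

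The promoters of these 2 sigma genes are shown, as RefSeq (GRCm38.p6) has them on the strand of the gene, because they lie at the ends of that range. Each run holds the part of the 250 bases before the listed start that lies outside the annotated gene. It spans chr5:137046109-137046358 for Ap1s1 and chr1:79672019-79672222 for Ap1s3, both on the minus strand. Capitals mark the GC box letters GGGCGG on either strand.
Ap1s1: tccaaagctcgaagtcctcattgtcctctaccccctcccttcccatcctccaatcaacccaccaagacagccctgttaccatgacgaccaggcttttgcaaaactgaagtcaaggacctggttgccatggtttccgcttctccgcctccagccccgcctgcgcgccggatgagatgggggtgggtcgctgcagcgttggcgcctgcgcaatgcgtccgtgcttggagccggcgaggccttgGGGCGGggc
Ap1s3: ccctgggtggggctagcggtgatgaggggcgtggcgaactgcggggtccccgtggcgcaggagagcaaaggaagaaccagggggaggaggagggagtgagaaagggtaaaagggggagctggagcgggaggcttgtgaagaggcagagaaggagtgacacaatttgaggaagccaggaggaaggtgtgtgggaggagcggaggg

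Over the full 250 bases before the listed start, 9 members had a promoter entry and Ap1m1 had none. The windows of Dnm3, Ap1b1 and Ap1s2 lay wholly inside the annotated gene, so their matches do not lie upstream of it. Those of Dnm1, Ap1m2 and Ap1s3 lay inside it in part. Ap1s1 held 17 CG pairs and Ap1s3 held 10, at 62.8% and 62.4% G and C, against a median of 52.4% over 32851 promoters of that length. GGGCGG was found in Ap1s1, Ap1g1, Dnm2 (1 match each) and Ap1b1 (3 matches), and in 32.7% of all promoters. In Ap1s3, Dnm3, Dnm1, Ap1m2 and Ap1s2 these letters were not in the window. CCAAT, searched on both strands, was in Dnm2 (4 matches), Dnm3, Ap1s1 and Ap1s2 (1 each), and in 33.8% of all promoters. CACGTG was in Ap1s2 (6.02% of all promoters), and TATAAA was in no member's window (12.4% of all promoters). A match is a string of letters, not a site in use.

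Of the large chains, Ap1b1 was slightly lower in siNF90, and Ap1g1 had no settled direction. Ap1g1, a gamma chain that binds accessory proteins through its ear domain, stood at 8.45 and 8.36 in siNTC and at 8.44 on both siNF90 arrays, a difference of 0.04 ± 0.12 with overlapping groups. Ap1b1, the beta chain that binds clathrin, stood at 5.57 and 5.64 in siNTC and at 5.4 and 5.32 in siNF90. The pairs did not overlap, and the difference was -0.25 ± 0.12, or 1.19-fold lower.

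The medium mu chains, which read tyrosine-based sorting signals, were both slightly higher in siNF90. Ap1m1, the mu chain made in most cells, stood at 5.78 and 5.71 in siNTC and 5.96 and 5.89 in siNF90, a difference of 0.18 ± 0.12. Ap1m2, the mu chain of polarized epithelia, stood at 1.41 and 1.31 in siNTC and 1.57 and 1.63 in siNF90, a difference of 0.24 ± 0.12. The Ap1m2 values all lie below the median level, where it cannot be told whether the transcript was detected. In both genes the groups did not overlap.

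Taking the members as a group, 6 had a difference above 0 and 4 below, with a median of 0.04 against 0.02 over all genes. The siNF90 pair lay wholly above the siNTC pair in 3 members (Ap1m1, Ap1m2 and Ap1s2), where 21.9% of all genes did so. It lay wholly below in 3 members (Dnm3, Ap1b1 and Ap1s3), where 17.9% of all genes did so. Groups overlapped in the other 4. Nothing is read from these counts, since the members were chosen with this contrast known.

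**Figure D2:**
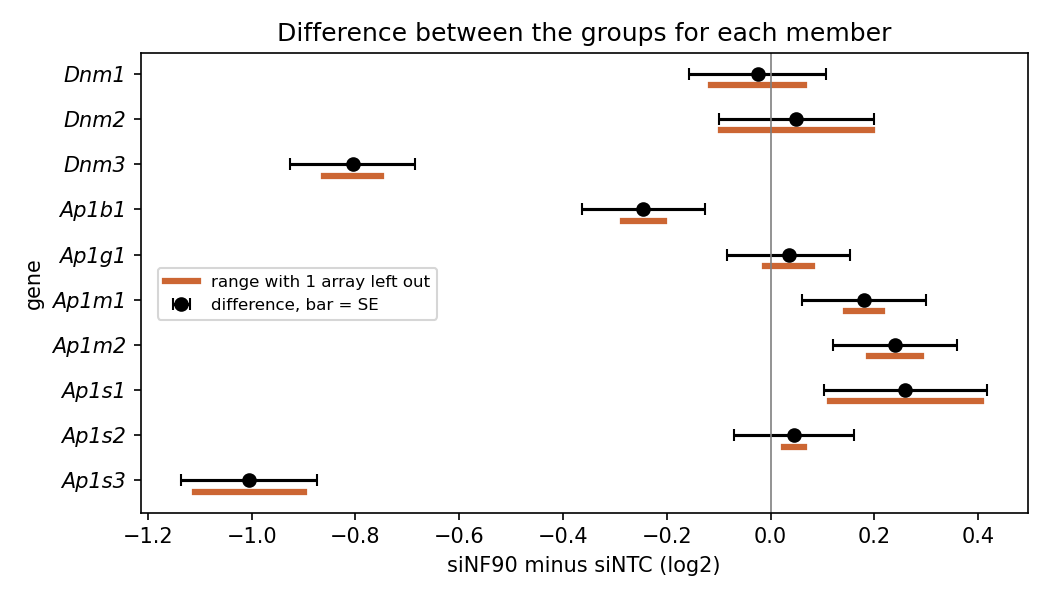
Difference siNF90 minus siNTC (log2, horizontal axis) for each member, with the SE of the fit (black bars, n = 2 arrays per group) and the range of the difference when each array is left out in turn (orange). Dnm3 ranged from -0.86 to -0.75 and Ap1s3 from -1.11 to -0.9, while the ranges of Dnm1, Dnm2 and Ap1g1 crossed 0. Each range is fixed by the gaps between replicate arrays.

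Leaving out each array in turn showed how much of each difference rests on 1 array. For Dnm3 the difference lay between -0.86 and -0.75, and for Ap1s3 between -1.11 and -0.9. That of Ap1b1 lay between -0.29 and -0.21, that of Ap1m1 between 0.15 and 0.22, and that of Ap1m2 between 0.19 and 0.29. Ap1s1 moved most in proportion among those that kept their sign with a difference over 0.1, from 0.12 to 0.41. The sign changed for Dnm1 (-0.12 to 0.07), Dnm2 (-0.1 to 0.2) and Ap1g1 (-0.01 to 0.08).

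**Figure D3:**
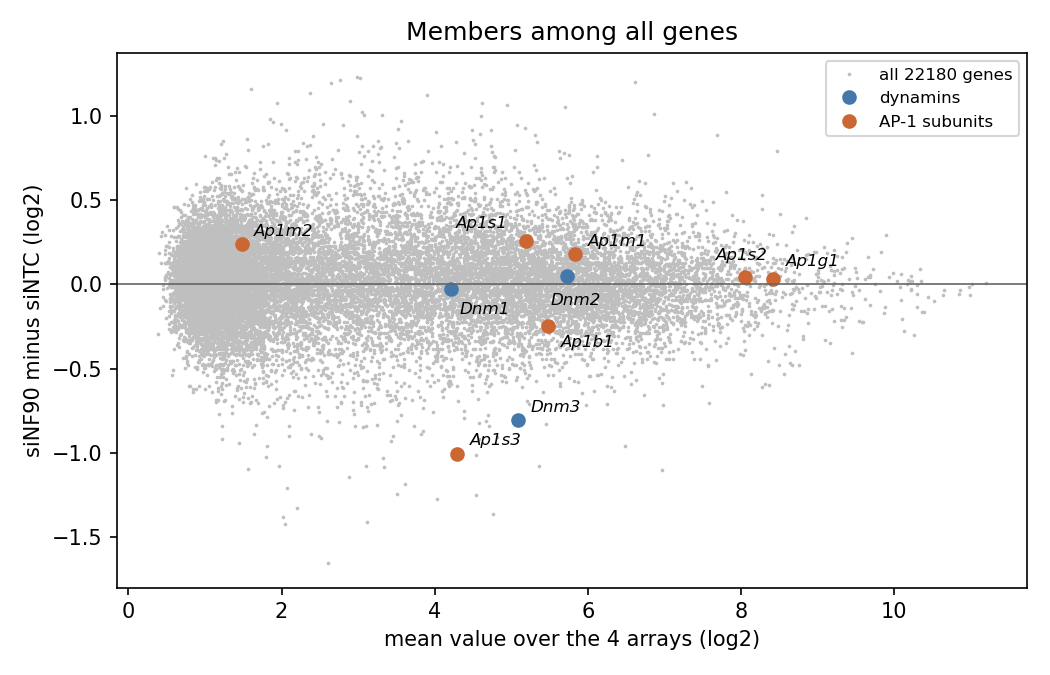
Difference siNF90 minus siNTC (log2, vertical axis) against the mean value over the 4 arrays (log2, horizontal axis) for all 22180 genes in grey, the dynamins in blue and the AP-1 subunits in orange. Dnm3 and Ap1s3 lie in the lower part of the cloud, at -0.81 and -1.01, where the lowest of all genes is at -1.655. The other 8 members lie between -0.25 and 0.26.

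The arrays resembled each other closely, with a median absolute gap of 0.15 between replicates in either group. Group means in siNTC ran from 3.74 to 10.5 for 8 of 9 beta cell markers, while Ucn3, a marker of mature beta cells, stood at 1.56, below the median level. They ran from 2.215 to 8.625 for markers of other islet endocrine cells and from 1.635 to 9.11 for those of neurons. The cell type is therefore not read from these levels. Of the 9 beta cell markers 5 were higher and 4 lower in siNF90, with a median difference of 0.065. Their summed level, in which the highest genes weigh most, stood at 11.79 and 11.71 in siNTC and 11.63 and 11.65 in siNF90 (log2). The differences of these 9 ran from -0.225 to 0.45. Slc2a2, a glucose transporter of rodent beta cells that is not in the list, was lower by more, at -1.08 ± 0.13. Of 8 genes usually used for neurons 5 were higher and 3 lower in siNF90, and their summed level was 10.19 and 10.22 in siNTC and 10.42 and 10.39 in siNF90. Stmn2 of that list went against the sum, at -0.81 ± 0.13 (limma, adjusted p = 0.357, and 0.0415 with a trend on level), and Nefl differed by 0.53 ± 0.12 (0.357, and 0.0217 with the trend). Of 5 epithelial markers 3 were higher, with sums of 6.34 and 6.22 against 6.4 and 6.57. The sums were 8.98 and 9.16 against 9.24 and 9.13 for 5 markers of other islet endocrine cells, of which 3 were higher. For 6 exocrine and duct markers, 3 of them higher, the sums were 5.12 and 5 against 5.15 and 5.21. Of 9 markers of stroma, endothelium and blood 4 were higher and 5 lower, with sums of 4.87 and 4.88 against 5.35 and 5.36. In that list Cd68 of lysosomes went from a siNTC mean of 3.34 to a siNF90 mean of 4.46. It differed by 1.125 ± 0.12 (limma, adjusted p = 0.342, and 0.0217 with a trend on level), the highest difference of that list. The other 8, the blood marker Ptprc included, lay below the median level. The part of these shifts in the members' differences was not tested. The samples are bulk RNA of 1 cell line. Fewer cells with a transcript and less of it per cell cannot be told apart in them.

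The other genes of the pathway were read from 10 lists, of which 132 of 142 genes were measured. None passed limma's test at an adjusted p under 0.05, which 0% of all genes passed upward and 0% downward. At an unadjusted p under 0.05, 6 of the 132 were higher and 5 lower, beside 5.87% and 4.41% of all genes. With a trend of the prior variance on expression level in limma, 1 of the 132 fell and 0 rose, beside 0.221% and 0.234% of all genes. The median difference was 0.02 in the pathway genes and 0.02 over all genes. The siNF90 pair lay wholly above the siNTC pair in 36 and wholly below in 30, beside the 21.9% and 17.9% of all genes given above.

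**Figure D4:**
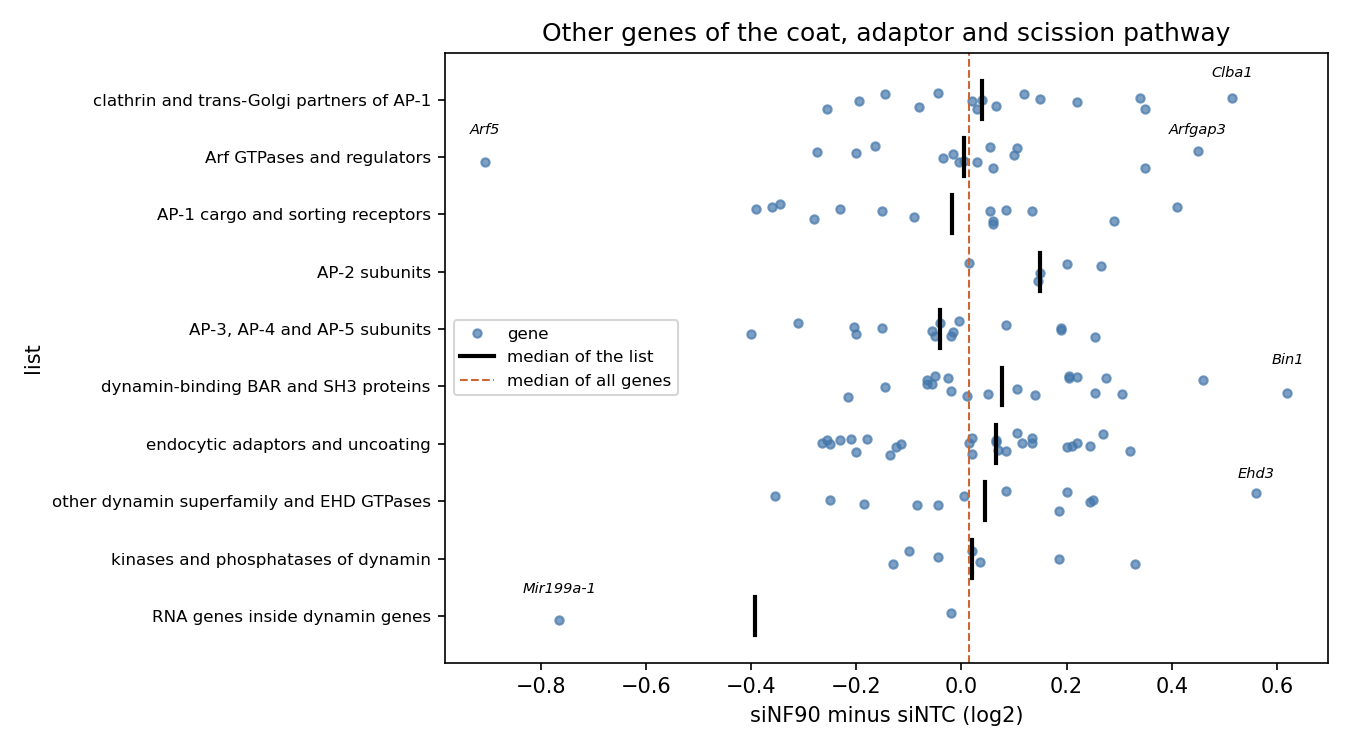
Difference siNF90 minus siNTC (log2, horizontal axis) of each measured gene in 10 lists of the pathway (points), with the median of each list (black) and of all genes (dashed). The points spread around 0 in most lists, the 5 AP-2 subunits lie between 0.02 and 0.27, and Arf5 lies apart at -0.91.

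Arf GTPases recruit AP-1 to membranes. Arf1 stood at 9.7 and 9.62 in siNTC and 9.67 and 9.76 in siNF90, with overlapping groups (limma, adjusted p = 0.921). Arf5 was the pathway gene with the lowest difference. Arf5 stood at 5.25 and 5.28 in siNTC and 4.54 and 4.18 in siNF90, a difference of -0.91 ± 0.16. Both siNF90 arrays lay below, and Arf5 did not pass limma's test (adjusted p = 0.357) but fell with the trend (limma, adjusted p = 0.0438). Arfgap3, which ends Arf signals at the Golgi, stood at 6.53 and 6.65 in siNTC and at 7.04 on both siNF90 arrays (limma, adjusted p = 0.4). Of the 15 genes of that list 8 were higher and 7 lower, with a median of 0.01.

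Clathrin chains and trans-Golgi partners of AP-1 had 10 of 15 members higher and a median of 0.04. Gga2, a monomeric adaptor that works beside AP-1, stood at 4.89 and 4.62 in siNTC and 5.19 and 5.02 in siNF90 (limma, adjusted p = 0.499). Clba1, a clathrin-binding protein, stood at 2.74 and 2.93 in siNTC and 3.78 and 2.92 in siNF90, so 1 array made its difference of 0.52 ± 0.28. Cargo and sorting receptors had 7 of 14 higher and 7 lower, with a median of -0.02. The siNF90 pair lay wholly below the siNTC pair in 7 and wholly above in 3, beside 17.9% and 21.9% of all genes. The list was not tested as a set. Atp7a, a copper pump that cycles through the trans-Golgi network, stood at 7.28 and 7.16 in siNTC and 7.49 and 7.77 in siNF90 (limma, adjusted p = 0.446). Furin, a protease of the trans-Golgi network, stood at 5.63 and 5.7 in siNTC and 5.36 and 5.19 in siNF90 (limma, adjusted p = 0.43). In both genes the groups did not overlap, in opposite directions.

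AP-2 is the adaptor of the plasma membrane and a close relative of AP-1. All 5 AP-2 subunits had a difference above 0, with a median of 0.15 against 0.02 over all genes, where 11773 of 22180 genes had one above 0. In 4 of the 5 the siNF90 pair lay wholly above the siNTC pair, as it did in 21.9% of all genes. Ap2a2, an alpha chain, stood at 6.73 and 6.76 in siNTC and 6.99 and 7.03 in siNF90, the widest difference of that list at 0.27 ± 0.12. Ap2s1, the sigma chain, was at 6.32 on both siNTC arrays and at 6.56 and 6.48 in siNF90. No AP-2 gene passed limma's test (lowest adjusted p = 0.509). The AP-3, AP-4 and AP-5 complexes, which serve lysosomal and other routes, had 4 of 15 subunits higher and 11 lower, with a median of -0.04. Ap3m2, the neuronal mu chain of AP-3, stood at 3.89 and 3.82 in siNTC and 3.65 and 3.26 in siNF90 (limma, adjusted p = 0.485). Ap5s1, the sigma chain of AP-5, stood at 2.38 and 2.08 against 2 and 1.84 (limma, adjusted p = 0.551).

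Proteins that bend membranes and recruit dynamin had 12 of 20 members higher and a median of 0.08. Bin1, an amphiphysin that binds dynamin, stood at 4.1 and 4.5 in siNTC and 4.97 and 4.87 in siNF90, a difference of 0.62 ± 0.17 (limma, adjusted p = 0.401). The siNF90 pair was the higher and the siNTC pair the less even. Snx18, a sorting nexin, stood at 6.22 and 6.18 in siNTC and 6.47 and 6.85 in siNF90 (limma, adjusted p = 0.441). Endocytic adaptors and uncoating factors had 17 of 27 higher (median 0.07). In that list Hip1r, which ties clathrin coats to actin, differed by 0.32 ± 0.14 and Arrb2, a beta-arrestin, by 0.27 ± 0.13 (limma, adjusted p = 0.507 and 0.554). Hip1r differed by 0.19 without the first siNF90 array, and Arrb2 by 0.16 without the second siNTC array.

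Other dynamin superfamily and EHD GTPases had 7 of 12 higher (median 0.05). Ehd3, which acts in recycling from endosomes, stood at 4.89 and 4.9 in siNTC and 5.42 and 5.49 in siNF90, a difference of 0.56 ± 0.12 (limma, adjusted p = 0.357). Its relative Ehd1 lay the other way, at 3.75 and 4.01 in siNTC and 3.61 and 3.44 in siNF90 (limma, adjusted p = 0.491). Kinases and phosphatases that act on dynamin had 4 of 7 higher (median 0.02). Ppp3cc, a calcineurin catalytic chain, differed by 0.33 ± 0.14 and Cdk5 by 0.19 ± 0.16 (limma, adjusted p = 0.492 and 0.749), and in Cdk5 the first siNF90 array made the whole difference.

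The genes whose pattern over the 4 arrays was most like that of Dnm3 or Ap1s3 were found by the smallest Euclidean distance between values centred on each gene's mean, among 11454 genes whose higher group mean reached the median level. The search uses the contrast itself, so the list is a description. Nearest to Dnm3 was Zfand1, a zinc finger protein (distance 0.0412), at 4 and 3.9 in siNTC and 3.23 and 3.12 in siNF90. Rgs4, a regulator of G-protein signalling (0.0592), the microRNA gene Mir483 (0.0817), the helicase Brip1 (0.0825) and the mitochondrial peroxiredoxin Prdx3 (0.114) followed. Nearest to Ap1s3 was Slc2a2, the glucose transporter GLUT2 of rodent beta cells (distance 0.0805), at 6 and 5.8 in siNTC and 4.78 and 4.86 in siNF90. Neto1 (0.134), the nuclear envelope protein Nemp1 (0.14), the mitochondrial import protein Timm8a1 (0.196) and Fstl5 (0.197) followed. Dnm3 and Ap1s3 lay 0.25 apart, so neither was among the 5 nearest of the other.

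**Figure D5:**
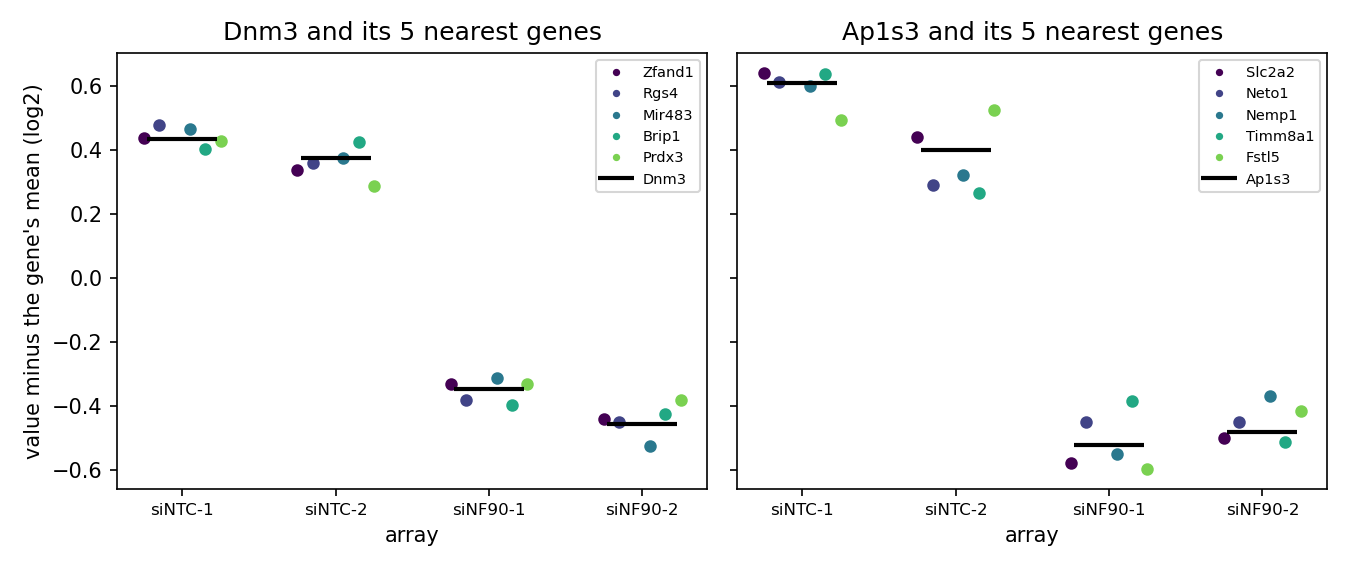
Values of Dnm3 (left) and Ap1s3 (right) on each of the 4 arrays, as log2 minus the gene's mean (black bars), with the 5 genes nearest to each (coloured points). Within each panel the points of an array lie close to the bar, since the genes were picked for that.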

How the data were processed

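The authors deposited a table of log2 values for 41345 probe sets on 4 arrays, for which the submitters' processing notes name Transcriptome Analysis Console. For background correction, normalization, summarization and log base, nothing is given in the sources used here, and base 2 was taken from the range. Names came from the platform annotation (23521 with 1 symbol, 1814 with several, 16010 with none), and the one with the highest mean was kept per gene. The fit was limma 3.58.1 in R 4.3.3 (lmFit and eBayes without a trend, 2 residual and 3.92 prior degrees of freedom), two-sided, with Benjamini-Hochberg adjustment over 22180 genes at 0.05, and was tested on simulated data. An exact permutation test of 2 against 2 arrays cannot go below p = 0.333 and was not used. The number of arrays limits the precision.

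The members, the pathway lists and the markers were chosen with earlier results of these data known. From each pathway list the 2 genes at or above the median level with the largest difference, and any that passed, are named, as are the 5 genes most alike to Dnm3 and to Ap1s3. Mir199a-1, Mir199b and Arf1, and the markers given with values, were named outside that rule, after their values were seen. Sequences are from RefSeq tables. Alternatives were a replicate block, a trend or robust prior, median centring, quantile normalization, a level filter, other choices of probe set and leaving out each array.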

Additional observations from a re-analysis of the deposited data

How the results depend on the processing

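The count of genes past the threshold was 0 in the planned limma fit, 2281 at an unadjusted p under 0.05, and 101 with a trend in level, where 1 gene of the pathway lists (Arf5) fell. A replicate block gave 0, at a cost in residual degrees of freedom, and so did the other alternatives. The replicate numbers are not stated to pair arrays, and deviations of same-numbered arrays correlated at r = -0.02. Dnm3 moved by more than the spread between arrays, to -0.46 as the mean of its probe sets and to -0.115 on its other probe set alone. That probe set lies below the median level, and which part or strand of the locus it covers is not known. No other member has a second probe set. Leaving out 1 of 2 arrays cannot by construction move a difference beyond that spread, and a replicate block does not change it. For the other members only rescaling could have done so, and it did not. Dnm1, Dnm2 and Ap1g1 still changed sign with an array left out. Quantile normalization and median centring shifted the median of all genes to 0.02 and 0.03. Mir199b changed sign without the first siNTC array (0.08) and without the first siNF90 array (0.06). As the mean of all their probe sets, Nemp1 and Timm8a1 differed by -0.29 and -0.25, against -0.92 and -0.9. Among list medians, that of AP-1 cargo was -0.12 without the first siNF90 array, and that of the other dynamin superfamily -0.02 without the first siNTC array and 0.01 with the filter on level. Of the named pathway genes, leaving out 1 siNF90 array moved Clba1 to 0.09 (first array) or 0.95 (second), Cdk5 to 0 or 0.37, Atp7a to 0.27, Ap3m2 to -0.21 and Snx18 to 0.27 (second array). Leaving out 1 siNTC array moved Gga2 to 0.22 and Ehd1 to -0.23 (second array), and Ap5s1 to -0.16 and Ppp3cc to 0.21 (first array). The cause of these changes was not tested.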
